A study of Rattus norvegicus with 18 samples.

Results

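The genes described here encode the coagulation, fibrinolysis and complement proteins of blood plasma, followed in rat liver across 6 groups. They were taken from a list of 38 symbols by matching each symbol to the gene names of the expression table. Of these symbols 37 were in the table of 33657 genes, on 38 rows, because factor B (Cfb) had 2 rows. Mbl2 is not analysed here. A filter on low values, at least 1 FPKM in at least 3 libraries, left 36 of these members among 11945 genes tested, with both Cfb rows below it. FPKM divide the fragments of a gene by its length and by the depth of its library, so levels of different genes can be set side by side.

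The liver makes most clotting and complement proteins of plasma and secretes them, largely as inactive precursors. In coagulation, the extrinsic arm (factor VII) and the contact and intrinsic arm (factor XII, prekallikrein, kininogen, factors XI and IX) meet at factor X, which with factor V turns prothrombin into thrombin. Antithrombin, protein C and protein S restrain this cascade, and plasminogen dissolves the fibrin clot. In complement, the classical and lectin arms (C1r, C1s, the mannose-binding lectins and their proteases) and the alternative arm lead to cleavage of C3 and then C5. C5, C6, C7, C8 and C9 then assemble a pore in the target membrane.

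The study asked how plantain feeding changed the liver transcripts of obese rats. All 18 libraries came from the livers of male rats aged 18 weeks, 3 libraries per group, made from 1 µg of RNA per sample. The normal control was labelled healthy and given water, and the obese control was labelled obese and given water. The other 4 groups were also obese: a positive control given orlistat, an inhibitor of fat-digesting lipases, and 3 plantain-fed groups, called low, medium and high by dose. The strain, the cause of the obesity and the amounts fed are not in the labels. Nothing there ties the 3 libraries of a group to 3 different animals, and the p-values below then reflect only how these libraries scatter, which may be technical.

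Whole reads, recovered from the deposited values, numbered 16.6 to 26.2 M in a library. The total by which the deposited FPKM had been scaled was 0.974 ± 0.00527 times the recovered total in the obese control and 1.04 ± 0.0124 times with orlistat (mean ± SD, n = 3), so the scale differed by group. What that total counts was not stated. Each comparison was therefore run on 5 scalings: the deposited FPKM, the same values rescaled to an equal sum per library (TPM), quantile-normalised values, recovered reads scaled by a trimmed mean, and values centred on the median gene. Calls that held on all of them are named as such. Hepatocyte markers such as albumin were among the highest genes, with albumin at 10.5 to 12.5% of the reads of a library. Mitochondrial genes took 8.11% of reads in the obese control, 4.64% at the high dose and values between these in the other groups. Summed FPKM of 10 Kupffer cell and macrophage markers ran from 106 to 107 in the normal control, 166 to 168 in the obese control, 181 to 188 with orlistat, 206 to 212 at the low dose, 140 to 146 at the medium dose and 150.4 to 150.8 at the high dose. For 10 liver endothelial markers the same sums were 56.7 to 58.0, 77.2 to 78.0, 115 to 116, 110 to 112, 110 to 111 and 128 to 131. No marker of these lists was below 0.1 FPKM in every library, and the part of these shifts in the results below was not tested. In bulk liver, fewer cells of a type and less RNA per cell cannot be told apart.

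Promoter sequences from RefSeq (build GRCr8) were matched to 27 of the 37 members in the table. The 250 bases upstream of the start are printed for the genes with the largest rises with plantain (Kng1 at the low dose, F5 at the high dose), the terminal complement genes that moved in opposite directions (C5 and C6) and the gene with the largest fall in obese liver (Pros1). C8g had no entry. Capitals mark matches, on either strand, to short motifs of liver and acute phase factors.
Kng1, chr11:91340149-91340398, minus strand: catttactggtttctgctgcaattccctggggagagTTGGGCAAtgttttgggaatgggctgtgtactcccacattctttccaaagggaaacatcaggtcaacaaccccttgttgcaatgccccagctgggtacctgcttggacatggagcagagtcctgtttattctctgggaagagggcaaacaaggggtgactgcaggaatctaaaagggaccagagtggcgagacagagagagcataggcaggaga
C5, chr3:38759469-38759718, minus strand: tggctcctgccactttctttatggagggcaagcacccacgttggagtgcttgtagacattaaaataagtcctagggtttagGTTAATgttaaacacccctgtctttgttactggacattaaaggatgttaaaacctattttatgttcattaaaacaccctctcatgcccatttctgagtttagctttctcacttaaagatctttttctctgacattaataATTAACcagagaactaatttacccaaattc
C6, chr2:55573383-55573632, plus strand: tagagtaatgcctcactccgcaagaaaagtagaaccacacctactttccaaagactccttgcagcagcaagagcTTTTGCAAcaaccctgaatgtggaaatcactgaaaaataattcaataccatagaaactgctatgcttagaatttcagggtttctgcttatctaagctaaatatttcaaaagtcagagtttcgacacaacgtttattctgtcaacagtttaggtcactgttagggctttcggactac
Pros1, chr11:13677049-13677298, plus strand: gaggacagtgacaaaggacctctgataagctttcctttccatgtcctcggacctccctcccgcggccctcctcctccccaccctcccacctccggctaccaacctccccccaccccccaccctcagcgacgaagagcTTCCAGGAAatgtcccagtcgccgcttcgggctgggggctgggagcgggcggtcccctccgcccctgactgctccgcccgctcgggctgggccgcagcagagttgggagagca
F5, chr13:79046407-79046656, plus strand: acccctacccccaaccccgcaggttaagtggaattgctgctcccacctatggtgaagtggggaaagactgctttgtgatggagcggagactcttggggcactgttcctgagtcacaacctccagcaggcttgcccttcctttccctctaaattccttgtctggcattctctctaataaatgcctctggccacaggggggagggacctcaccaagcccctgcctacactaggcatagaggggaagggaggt
The Kng1 and C6 capitals match the C/EBP motif TTGCNNAA, read on the opposite strand. It occurred in 10 of the 27 member promoters and in 9.22% of the 33469 rat promoters of the same length. The C5 window holds the HNF1 motif GTTAAT on both strands, at -169 and at -30 from the start. That motif was in 8 of the 27 member promoters (C4bpa, C4bpb, C5, C8a, F13b, F2, Plg and Proc) and in 6.45% of all promoters. The Pros1 window holds the STAT motif TTCNNNGAA, found in 5 of 27 and in 7.67% of all. That window is on chromosome 11, while the authors' coordinates place Pros1 on chromosome 7. It was matched by symbol only, so it may not be that of the measured gene model. The HNF4 core CAAAGT was in 3 of 27 and 12.9%, the FOXA motif TGTTTAC in 4 of 27 and 3.21%, and the TATA motif TATAAA on the given strand in 0 of 27 and 8.06%. The F5 window held none of the 6 motifs, and no matches overlapped in the printed windows. Each match describes letters in this window and is not a site or a cause.

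Most members were abundant and reproducible. Their median level over all libraries was 302 FPKM, beside 5.54 FPKM for all genes tested, and 6 members were among the 100 highest genes. The median coefficient of variation within a group was 1.28%, beside 6.01% for all genes. Vitronectin (Vtn), a plasma adhesion protein, and C3 led the list, with 2976 and 2568 FPKM in the obese control. F7, F5, Masp1 and C2 were the lowest of those tested, at 46.8, 34.0, 32.9 and 11.2 FPKM in that group. The 2 gene models named Cfb overlap each other on chromosome 20, and the longer of them also overlaps C2. Both Cfb models were listed at 0 or at most 0.114 FPKM. No level can therefore be given for factor B, and that of C2 is uncertain. Members moved little between groups: in 31 of 36 the highest group mean was under 1.5 times the lowest. The median of that ratio was 1.28, beside 1.40 for all genes tested. On the deposited scale 23 members were lowest in the normal control and 18 were highest at the low dose of plantain. Such ranks were not counted over all genes or on the other scalings, so these 2 counts have no background. The group means differed in all 36 members by an F-test over the 6 groups at adjusted p under 0.05, a call that 72.1% of all genes also passed.

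**Figure D1:**
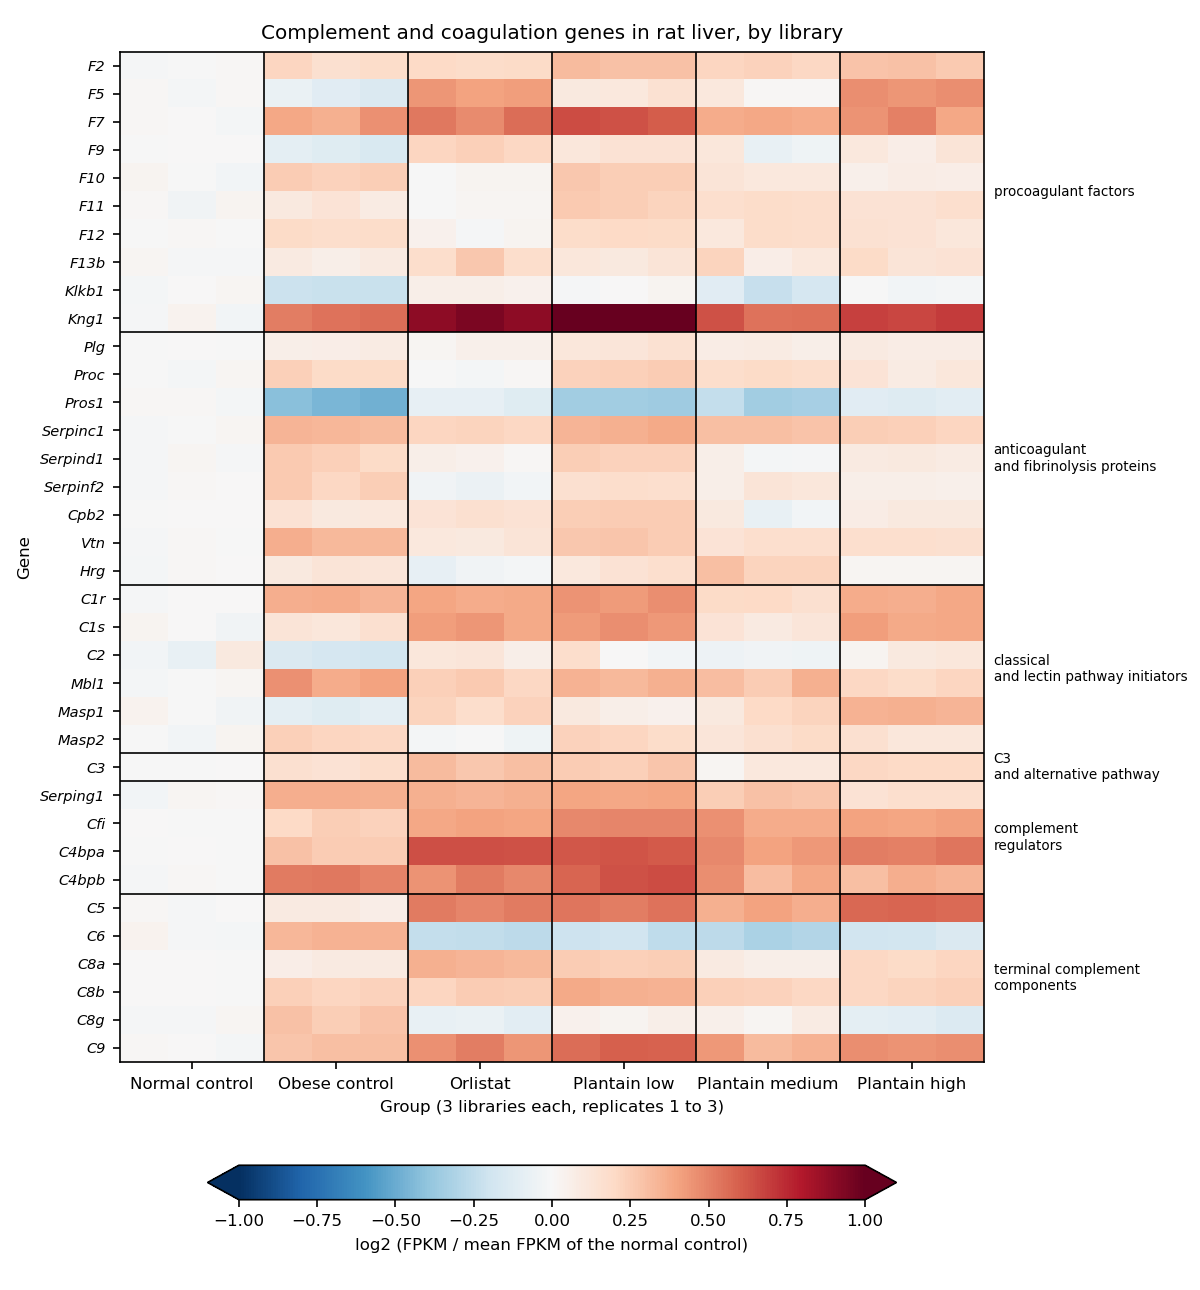
Each row is a gene and each column a library, 3 per group; colour is the log2 ratio of FPKM to the normal control mean, clipped at 1 in either direction, by role from top to bottom. Colours change more between groups than among the 3 libraries of a group in most genes, Kng1 is darkest at the low dose, and C6 is red in the obese control and blue in the 4 treated groups.

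Summed FPKM of the members was 15119 ± 46.9 in the normal control and 17632 ± 88.4 in the obese control. It was 17622 ± 20.7 with orlistat, 18983 ± 88.9 at the low dose, 17135 ± 67.9 at the medium dose and 17460 ± 41.1 at the high dose, each a mean ± SD over 3 libraries. The normal control was lowest and the low dose highest, with no overlap of either with another group. On the TPM scale the normal control was also lowest, at 27242 ± 217, but orlistat was highest, at 32784 ± 618, beside 32324 ± 382 at the low dose. Orlistat and low-dose libraries overlapped there. The rank of the obese control turned with the scale. On the deposited scale its mean was above those of orlistat, the medium dose and the high dose. On TPM it was below every treated mean, at 29151 ± 323 beside 30250 ± 678 at the medium dose, the lowest of these. On quantile-normalised values it was also below them, at 16626 ± 210 beside 17344 ± 537, with overlap of the medium-dose libraries.

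Obese control livers were first set against normal control livers. Most of the 36 members were higher in obesity, by 1.45-fold at most on the deposited scale, and protein S and prekallikrein were lower. On all 5 scalings 19 of 36 members rose and 2 fell by limma's adjusted p, beside 16.3% and 22.9% of all genes tested. On the deposited scale alone 29 rose and 6 fell (26.7% and 28.4% of all genes), and on TPM 20 rose and 7 fell (16.5% and 38.3%), where the median log2 difference over all genes shifted by -0.12. The groups did not overlap in 36 of 36 members, as in 62.5% of all genes. The median log2 difference of the members was 0.21, and that of all genes was -0.00027. By role, the calls that held on every scaling were 4 rises and 1 fall in 10 procoagulant factors, and 4 and 1 in 9 anticoagulant and fibrinolysis proteins. They were 3 rises in 6 classical and lectin initiators, 4 in 4 complement regulators and 4 in 6 terminal components, with no fall in these roles.

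Kng1 encodes kininogen, the cofactor of the contact pathway and the precursor of bradykinin (chromosome 11, 81421676 to 81444621 on the minus strand in the authors' coordinates, whose build no source used here gives). It had 316, 326 and 312 FPKM in the normal control and 453, 463 and 468 in the obese control. The obese libraries were all higher, 1.45-fold, with a log2 difference of 0.54 ± 0.024 (SE; limma adjusted p 3.44e-11) and 0.41 to 0.60 over the scalings. In the RefSeq gene table its neighbours on chromosome 11 include Kng2 and Kng2l1, further kininogen genes by name, which are not analysed here. How alike their sequences are was not tested, so the level of Kng1 is uncertain.

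F7, factor VII, starts the extrinsic arm and went from 35.7, 35.6 and 35.1 to 46.2, 45.4 and 48.7 FPKM, a log2 difference of 0.39 ± 0.031 (adjusted p 3.73e-08). Prothrombin (F2) rose by 0.19 and factor X (F10) by 0.24 on the log2 scale. Prekallikrein (Klkb1), the contact protease that releases bradykinin from kininogen, went the other way. It had 136, 138 and 139 FPKM in the normal control and 119, 118 and 118 in the obese control, with a log2 difference of -0.22 ± 0.023 (adjusted p 8.85e-07). F5, the cofactor of activated factor X, had 36.9, 36.1 and 36.9 FPKM in the normal control and 35.0, 33.8 and 33.1 in the obese control. Its libraries did not overlap, and it fell by 7.24% on the deposited scale, but this call did not hold on all 5.

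Among the restraints on clotting, antithrombin (Serpinc1) had 576, 579 and 587 FPKM in the normal control and 734, 729 and 723 in the obese control. All obese libraries were higher, with a log2 difference of 0.33 ± 0.013 (adjusted p 9.78e-12) that held on every scaling. Protein C (Proc) and heparin cofactor (Serpind1) rose by 0.21 and 0.23. Antiplasmin (Serpinf2), which inhibits plasmin and so restrains clot dissolution rather than clotting, rose by 0.24. Serpind1 lies within the antisense gene Pi4ka over all 11011 of its bases, and whether the counting used strand was not stated. Vtn had 2334, 2379.9 and 2351 against 3025, 2952 and 2952 FPKM. Its difference of 0.34 ± 0.014 (adjusted p 9.31e-12) ran from 0.11 to 0.40 over the scalings and was not called on all of them.

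Pros1 encodes protein S, the cofactor of activated protein C, and lies at 1206648 to 1288134 on the plus strand of chromosome 7 in the authors' coordinates, while RefSeq's GRCr8 places it on chromosome 11. Its libraries had 97.3, 97.0 and 95.0 FPKM in the normal control and 72.2, 70.3 and 69.3 in the obese control. The obese libraries were all lower and the level fell by 26.8%, with a log2 difference of -0.44 ± 0.026 (adjusted p 8.11e-10). Among the 6 vitamin K-dependent members (F2, F7, F9, F10, Proc and Pros1), 4 were called higher and 2 lower on the deposited scale. Factor IX (F9), the second of those lower, differed by -0.12 ± 0.035 and did not pass on all scalings.

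In the lectin arm, the mannose-binding lectin Mbl1 rose by 0.41 ± 0.025 (adjusted p 1.76e-09), from 167 ± 2.30 to 222 ± 6.44 FPKM. The lectin protease Masp2 rose by 0.22 on all scalings, while Masp1 had a difference of -0.10 that did not hold on all. C1r, the first protease of the classical arm, rose by 0.36. Its substrate C1s differed by 0.13 and was not called on every scaling.

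The regulators rose together in obese liver, 4 of 4 on all scalings. Serping1, the inhibitor of C1r, C1s and kallikrein, had 419, 432 and 430.1 FPKM in the normal control and 548, 548 and 545 in the obese control, a difference of 0.36 ± 0.015 (adjusted p 1.11e-11). C4bpb, the beta chain of C4b-binding protein, which carries protein S in plasma, had 321, 326 and 323 FPKM in the normal control and 462, 465 and 457 in the obese control, a difference of 0.51 ± 0.031 (adjusted p 1.55e-09). The alpha chain, C4bpa, rose by 0.27 and the C3b-cleaving protease Cfi by 0.23. Among terminal components, C6, C8b, C8g and C9 rose by 0.34, 0.23, 0.27 and 0.29 on every scaling. C5 and C8a, each with a difference of 0.08, did not pass on all and turned negative on TPM.

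The remaining members differed less between the controls or depended on the scaling. C3 differed by 0.16, with 2296 ± 4.76 FPKM in the normal control and 2568 ± 27.4 in the obese control. C2 differed by -0.15, from 12.6 ± 0.764 to 11.2 ± 0.165 FPKM, and its adjusted p of 0.0113 became 0.0687 without normal control replicate 3. Factor XII, the first contact protease, differed by 0.18, factor XI by 0.10 and F13b by 0.08, the last not passing the test on the deposited scale (adjusted p 0.0607). Plasminogen, Cpb2 and Hrg differed by 0.07, 0.12 and 0.11, and all 3 turned negative on TPM.

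**Figure D2:**
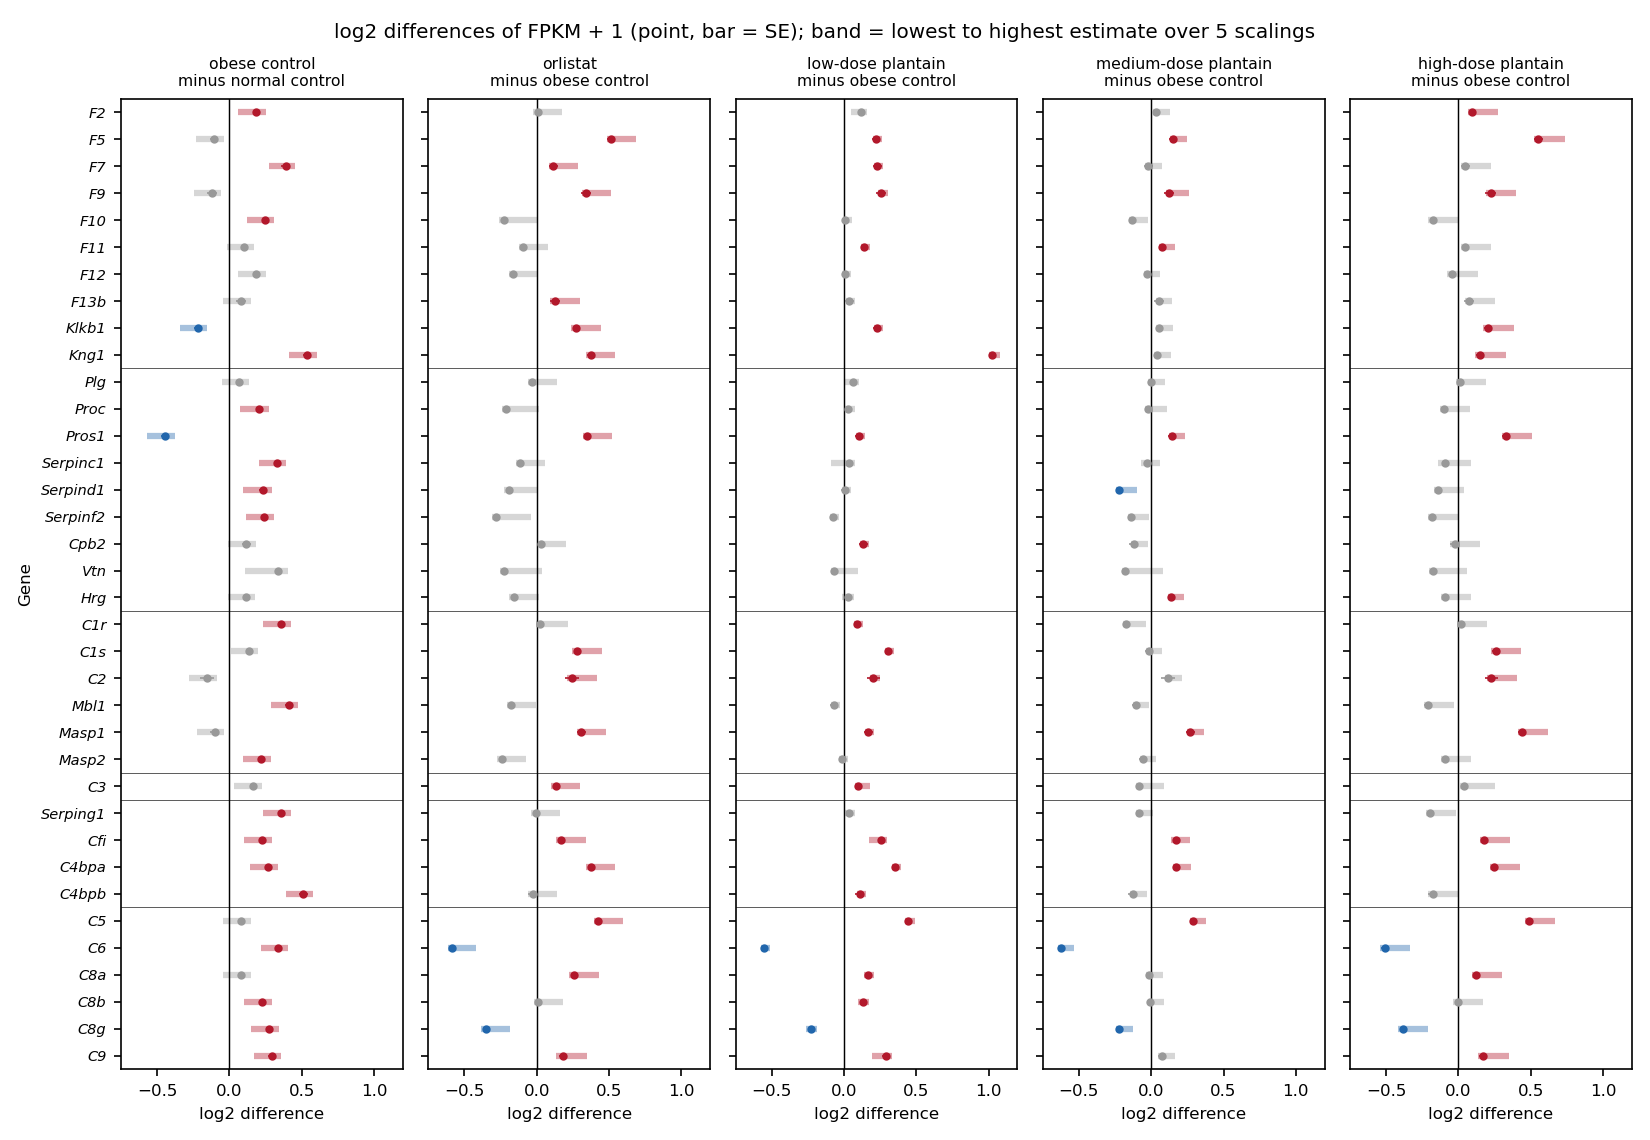
Points are log2 differences of FPKM + 1 for each gene in 5 comparisons, bars their standard errors, and bands the lowest to highest estimate over 5 scalings; red and blue genes were called higher and lower on all of them. In obese against normal liver 19 genes are red and 2, Pros1 and Klkb1, are blue, while C6 and C8g are blue in each of the 4 treatments.

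The 4 treated groups were each set against the obese control. These comparisons share its 3 libraries, so a deviation of those libraries enters all 4. Among the largest changes that held on all scalings, Kng1 rose 2.04-fold at the low dose, F5 rose 1.44-fold with orlistat and 1.48-fold at the high dose, and C5 rose 1.35-fold with orlistat and 1.41-fold at the high dose. C6, the next pore component, fell by 35.4% at the medium dose. With orlistat 16 of 36 members rose and 2 fell on all scalings (22.9% and 12.9% of all genes), and at the low dose 20 rose and 2 fell (15.7% and 10.6%). At the medium dose 9 rose and 3 fell (19.3% and 11.8%), and at the high dose 14 rose and 2 fell (23.3% and 12.1%). At the medium dose the share of members called higher was close to the background, and in the other comparisons it was above it. Members varied less within groups than all genes, as given above, and the part of this in these shares was not tested. Median absolute log2 differences of the members were 0.201 with orlistat and 0.124, 0.112 and 0.170 at the low, medium and high doses. For all genes they were 0.203, 0.131, 0.158 and 0.196, so the members' differences were not larger.

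On the deposited scale alone the calls with orlistat were 16 higher and 13 lower (26.2% and 25.6% of all genes), and at the low dose 22 and 5 (18.3% and 14.8%). They were 10 and 13 at the medium dose (21.8% and 20.1%) and 14 and 13 at the high dose (26.6% and 25.3%). On TPM the split was 25 and 4 with orlistat (41.8% and 13.1% of all genes) and 27 and 2 at the low dose (22.4% and 10.9%). It was 21 and 5 at the medium dose (31.4% and 12.1%) and 27 and 2 at the high dose (43.3% and 12.4%). TPM shifted the median of all genes in these comparisons by 0.16, 0.04, 0.09 and 0.17 on the log2 scale, in the same order. Differences of Vtn, Proc, Serpinc1 and Hrg that were negative on the deposited scale turned positive on TPM or quantile-normalised values in 1 or more treatments. Small rises grew by the same shift, and that of Kng1 at the high dose, for example, ran from 0.12 to 0.33 over the scalings. Median log2 differences of the members were 0.018, 0.11, -0.016 and 0.030, beside -0.0078, 0.010, 0.0016 and -0.0022 for all genes.

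**Figure D3:**
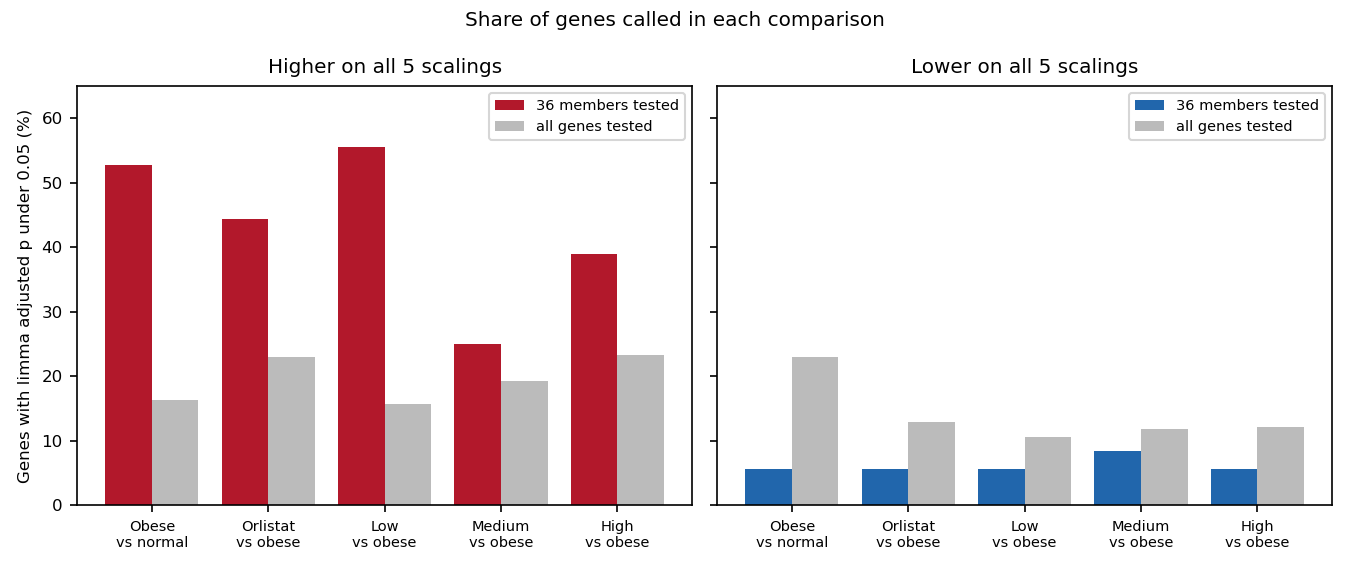
Bars give the percent of genes called higher (left) and lower (right) on all 5 scalings, coloured for the 36 members and grey for all genes tested, in 5 comparisons. The coloured bars exceed the grey ones for rises, least at the medium dose where 9 of 36 stand beside 19.3%, and lie below them for falls.

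Kng1 had 927, 941 and 954 FPKM at the low dose, 591, 612 and 591 with orlistat, 494, 464 and 467 at the medium dose and 512, 505 and 516 at the high dose. All low-dose libraries lay above every other library of the study, and the medium-dose libraries overlapped the obese control at 453, 463 and 468. The low-dose difference from the obese control was 1.03 ± 0.024 (adjusted p 1.77e-13), with 1.00 to 1.08 over the scalings. It was 0.37 ± 0.024 with orlistat and 0.15 ± 0.024 at the high dose, both called on all scalings, and 0.04 ± 0.024 at the medium dose, which was not called (adjusted p 0.2). The order of plantain doses by level was thus low, high and medium, and equality of the 3 doses was rejected by limma's F-test (adjusted p 3.32e-13). The limit from the neighbouring kininogen genes, given above, applies to these levels too.

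F5 (chromosome 13, 82479998 to 82535534, plus strand) had 49.7, 48.4 and 49.0 FPKM with orlistat and 50.7, 49.8 and 50.5 at the high dose. At the low and medium doses it had 39.1, 39.5 and 40.7 and 39.5, 37.0 and 37.0, against 35.0, 33.8 and 33.1 in the obese control. Every treated library exceeded every obese control library, and orlistat and the high dose lay well above the rest. The log2 differences were 0.52 ± 0.028 with orlistat, 0.22 ± 0.028 at the low, 0.15 ± 0.028 at the medium and 0.55 ± 0.028 at the high dose, the last with adjusted p 2.65e-10.

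Factor IX rose by 0.34 with orlistat, 0.26 at the low dose, 0.12 at the medium dose and 0.22 at the high dose on all scalings. At the medium dose replicate 1 stood apart, with 402, 353 and 362 FPKM in replicates 1 to 3. That medium-dose call had adjusted p 0.0119 and was lost (0.0509) without replicate 3 of the obese control, and the difference was 0.0637 without medium-dose replicate 1. Prekallikrein had 143, 143 and 142 FPKM with orlistat, 137, 138 and 140.5 at the low dose and 137, 135 and 136 at the high dose. It rose by 0.27 ± 0.023, 0.23 ± 0.023 and 0.20 ± 0.023 in these groups. At the medium dose it had 128, 118 and 123 FPKM, overlapping the obese control, with adjusted p 0.0773, which became 0.00407 without replicate 2 of that dose. Factor VII rose with orlistat (0.12) and at the low dose (0.23) on all scalings, where it reached 55.7, 55.2 and 54.0 FPKM. Factor XI (F11) rose by 0.14 at the low and 0.07 at the medium dose. F13b, the carrier subunit of factor XIII, rose by 0.13 with orlistat (adjusted p 0.00581). Prothrombin rose by 0.09 at the high dose on all scalings. Of the 10 procoagulant factors, 6 rose with orlistat, 6 at the low dose, 3 at the medium dose and 5 at the high dose on all scalings, and 0 fell. Factors X and XII differed by -0.23 and -0.16 with orlistat on the deposited scale, but factor X turned positive on quantile-normalised values and factor XII on TPM.

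Protein S levels in the treated groups lay between those of the controls. Its libraries had 91.0, 91.1 and 88.7 FPKM with orlistat, 75.9, 75.9 and 75.5 at the low dose, 81.7, 75.8 and 76.4 at the medium dose and 89.0, 88.0 and 89.8 at the high dose. All lay above the obese control at 72.2, 70.3 and 69.3 and below the normal control at 97.3, 97.0 and 95.0. Differences from the obese control were 0.35 ± 0.026, 0.10 ± 0.026, 0.14 ± 0.026 and 0.33 ± 0.026 in the same order, each called on all scalings. Carboxypeptidase B2 (Cpb2), which slows clot dissolution, rose by 0.13 at the low dose. Histidine-rich glycoprotein (Hrg) rose by 0.14 at the medium dose, where heparin cofactor (Serpind1) fell by 14.2%, to 287 ± 9.01 FPKM. Vtn had 2539, 2527 and 2579.7 FPKM with orlistat, 2837, 2848 and 2810.3 at the low dose, 2587, 2651 and 2651 at the medium dose and 2648, 2646 and 2626 at the high dose. These lay below the 3025, 2952 and 2952 of the obese control in every library on the deposited scale, but the difference turned positive on quantile-normalised values in all 4 treatments. Plasminogen (Plg) had its lowest group mean, 1062 FPKM, in the normal control and its highest, 1163, at the low dose. Antithrombin lay between 674 FPKM with orlistat and 746 at the low dose among the obese groups. Protein C lay between 271 and 321 and antiplasmin between 244 with orlistat and 295 in the obese control. These 3 passed on all scalings in 0 of the 4 comparisons.

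**Figure D4:**
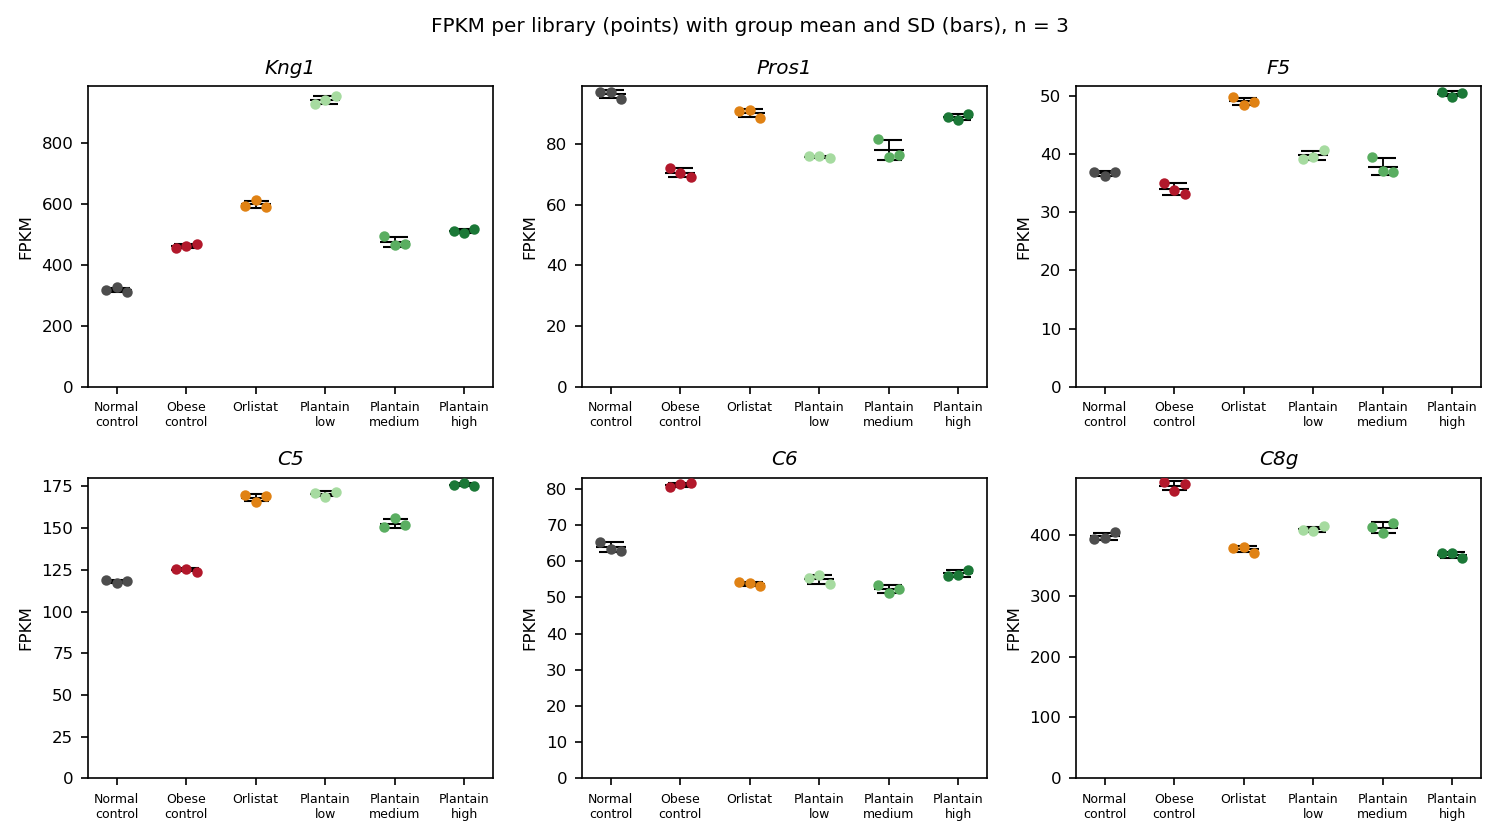
FPKM of 6 genes in each library (points) with the group mean and SD (bars), n = 3 per group, axes from 0. Kng1 reaches 927 to 954 at the low dose, Pros1 and F5 are lowest in the obese control, C5 is high in all treated groups, and C6 and C8g are highest in the obese control.

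In the lectin arm, Masp1 had 33.1, 32.5 and 33.0 FPKM in the obese control, 41.3, 40.0 and 41.6 with orlistat and 37.9, 36.9 and 36.3, 37.8, 40.6 and 41.2 and 44.9, 45.2 and 44.8 at the low, medium and high doses. No treated library overlapped the obese control, and the high dose was highest. The differences were 0.31 ± 0.030, 0.17 ± 0.030, 0.27 ± 0.030 and 0.44 ± 0.030, called on all scalings. Masp2, at 111 ± 1.42 FPKM in the obese control, and Mbl1, at 222 ± 6.44, passed on all scalings in 0 of the 4 comparisons. Of the classical proteases, C1s rose by 0.28 with orlistat, 0.31 at the low dose and 0.26 at the high dose, and C1r by 0.09 at the low dose. C2, which C1s cleaves, rose by 0.24, 0.20 and 0.23 in the same 3 groups, with the limit from the overlapping Cfb model given above. C3, the protein on which all arms converge, rose by 0.13 with orlistat and 0.10 at the low dose.

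Among the regulators, C4bpa had 451, 451 and 449.6 FPKM with orlistat, 444, 446 and 442 at the low dose, 403, 381 and 390.2 at the medium dose and 412, 408 and 418 at the high dose, against 354, 344 and 344 in the obese control. All treated libraries were higher. Its differences were 0.37 ± 0.018, 0.35 ± 0.018, 0.17 ± 0.018 and 0.25 ± 0.018. Cfi rose by 0.17, 0.26, 0.17 and 0.18 in the same order. C4bpb had 484, 503 and 507 FPKM at the low dose and rose by 0.11 there on all scalings, a call lost without low-dose replicate 3 (adjusted p 0.0558). Serping1 had 472, 479.7 and 481 FPKM at the high dose against 548, 548 and 545 in the obese control. That difference of -0.20 ± 0.015 (adjusted p 2.54e-08) shrank to -0.02 at the other end of the scalings.

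The terminal components split. C5 (chromosome 3, 14049995 to 14229080, minus strand), whose fragments recruit leukocytes and start the pore, had 126, 126 and 124 FPKM in the obese control. It had 169.8, 166 and 169 with orlistat, 171, 169 and 172 at the low dose, 151, 156 and 152 at the medium dose and 176, 177 and 175 at the high dose. Every treated library was above every control library of both kinds. The differences from the obese control were 0.43 ± 0.017, 0.44 ± 0.017, 0.29 ± 0.017 and 0.49 ± 0.017, and the adjusted p at the high dose was 3.33e-12. A predicted antisense gene overlaps C5 by 10211 bases and was listed at 0.331 FPKM at most.

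C6 (chromosome 2, 54466280 to 54533797, plus strand), the next component of the pore, moved the opposite way. It had 65.4, 63.4 and 62.9 FPKM in the normal control and 80.4, 81.3 and 81.5 in the obese control. With orlistat it had 54.3, 53.9 and 53.3, and at the low, medium and high doses 55.4, 56.1 and 53.6, 53.4, 51.3 and 52.3 and 55.9, 56.3 and 57.7. The obese control was highest and the treated groups fell below the normal control, without overlap. The log2 differences from the obese control were -0.58 ± 0.023 with orlistat and -0.55 ± 0.023, -0.62 ± 0.023 and -0.51 ± 0.023 at the 3 doses (adjusted p 1.47e-11, 6.70e-11, 1.12e-11 and 7.15e-11). They held on every scaling.

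C8g, the gamma chain of C8 (chromosome 3, 2724616 to 2727616, minus strand), also fell. It had 486, 472 and 483 FPKM in the obese control, 378, 380.0 and 370.3 with orlistat and 409, 406 and 414, 413, 402 and 420.2 and 371, 370.0 and 361 at the low, medium and high doses. No treated library reached the obese control. The differences were -0.35 ± 0.019, -0.23 ± 0.019, -0.22 ± 0.019 and -0.39 ± 0.019. The gene overlaps the antisense gene Fbxw5 by 363 bases, and Fbxw5 reached at most 23.4 FPKM. The alpha chain C8a instead had 315, 311 and 308 FPKM with orlistat against 258, 261 and 261 in the obese control. The beta chain C8b had group means of 264 FPKM in the obese control and 289.7 at the low dose, where it rose by 0.13 on all scalings. C8a rose by 0.26 ± 0.014 with orlistat, 0.16 at the low dose and 0.12 at the high dose. C9, which forms most of the pore, had 538, 534 and 527 FPKM in the normal control and 644, 658 and 656 in the obese control. It had 784, 807 and 801 at the low dose, where it rose by 0.29. C9 also rose with orlistat (0.18) and at the high dose (0.17) on all scalings, while its medium-dose difference of 0.07 did not pass on all of them.

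Ratios of 2 members within a library do not depend on its scale. They were chosen after the values were seen and are given as a description. C5 over C6 was 1.85 ± 0.0323 in the normal control and 1.54 ± 0.0216 in the obese control. It was 3.13 ± 0.0508 with orlistat and 3.10 ± 0.0994, 2.92 ± 0.109 and 3.11 ± 0.0621 at the low, medium and high doses (mean ± SD, n = 3). C8a over C8g, chains of the same protein, went from 0.541 ± 0.0112 in the obese control to 0.827 ± 0.00694 with orlistat and 0.712 ± 0.00646, 0.626 ± 0.0152 and 0.771 ± 0.0158 at the 3 doses, against 0.618 ± 0.0104 in the normal control. C4bpa over C4bpb was lowest in the obese control, at 0.753 ± 0.0131, beside 0.892 ± 0.00439 in the normal control and 1.01 ± 0.0289 at the high dose. C1s over C1r was likewise lowest there, at 0.740 ± 0.0202, beside 0.863 ± 0.0242 in the normal control and 0.882 ± 0.0191 with orlistat. Protein S over protein C was 0.355 ± 0.00890 in the normal control and 0.225 ± 0.00168 in the obese control. That ratio was 0.333 ± 0.00803 with orlistat, 0.236 ± 0.00276 at the low dose, 0.253 ± 0.0111 at the medium dose and 0.303 ± 0.00463 at the high dose. Kininogen over prekallikrein was 2.31 ± 0.0623 in the normal control, 3.91 ± 0.0754 in the obese control and 6.79 ± 0.0140 at the low dose. The other treated groups lay between 3.75 ± 0.0412 at the high dose and 4.19 ± 0.0703 with orlistat.

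**Figure D5:**
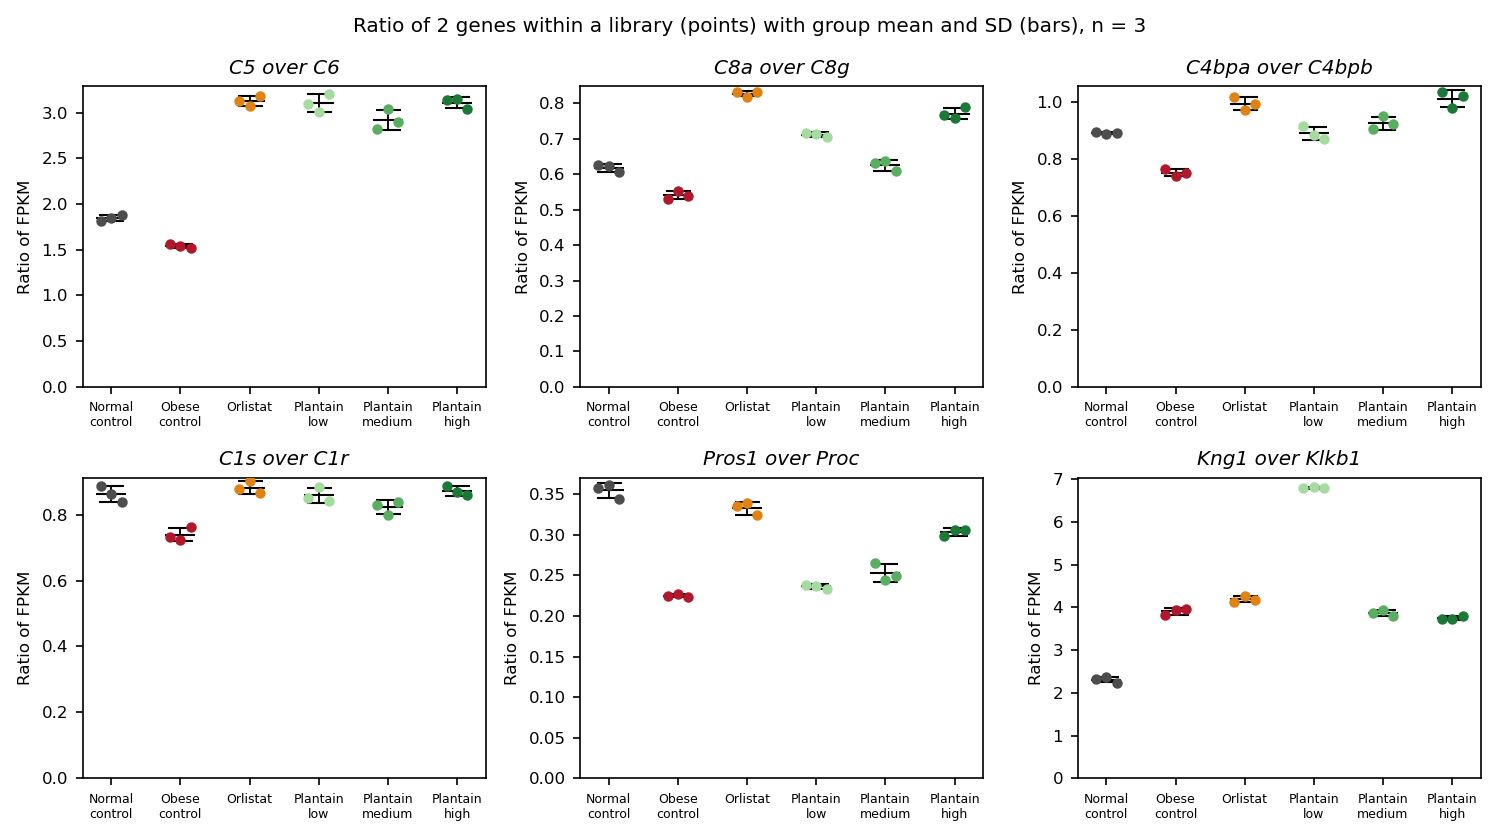
Ratios of FPKM of 2 genes within each library (points) with the group mean and SD (bars), n = 3 per group, axes from 0. C5 over C6 lies near 3 in all treated groups and under 2 in both controls, and Kng1 over Klkb1 is highest at the low dose.

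Plantain doses were compared with each other by limma's F-test, which 33 of 36 members passed on the deposited scale, as did 38.4% of all genes. On TPM 29 passed (45.3% of all genes), and on quantile-normalised values 25 (37.6%). The 3 that did not pass on the deposited scale were F12, C2 and F13b (adjusted p 0.105, 0.144 and 0.594). Kng1, C1r and C1s were highest at the low dose and lowest at the medium dose. C1r had 356 ± 4.93, 296 ± 3.87 and 338 ± 2.64 FPKM at the low, medium and high doses (adjusted p 7.40e-09). C1s had 305 ± 3.95, 244 ± 4.43 and 295 ± 4.33 (adjusted p 3.83e-08). F5 was highest at the high dose, with 39.8 ± 0.814, 37.8 ± 1.43 and 50.3 ± 0.454 (adjusted p 4.87e-08). Serping1 was lower at each higher dose, with 559 ± 2.00, 515 ± 7.62 and 478 ± 4.51 (adjusted p 4.46e-08).

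High-dose plantain was also compared directly with orlistat. On all scalings 4 members were higher and 6 lower (6.20% and 5.08% of all genes), and on the deposited scale 10 were higher and 7 lower (8.45% and 6.67%). The lectin proteases Masp1 and Masp2 were higher at the high dose, by 0.13 ± 0.030 and 0.15 ± 0.023, as were F11 (0.14 ± 0.020) and F2 (0.09 ± 0.014). Lower were Kng1 (-0.23 ± 0.024, adjusted p 7.48e-06), Serping1 (-0.19 ± 0.015, adjusted p 2.35e-07), C4bpb (-0.15), C8a (-0.14), C4bpa (-0.13) and F9 (-0.12). The F9 call was lost without any 1 of orlistat replicates 1 to 3 or of high-dose replicates 1 and 2 (adjusted p 0.0576 to 0.113).

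Treated livers were also set against the normal control, which the obese comparison shares. On the deposited scale 23 members were higher and 3 lower with orlistat (19.8% and 24.3% of all genes) and 30 and 2 at the low dose (22.8% and 25.0%). They were 28 and 3 at the medium dose (21.1% and 24.2%) and 30 and 3 at the high dose (19.5% and 22.9%). C6 was below the normal control, with log2 differences of -0.24 with orlistat and -0.21, -0.28 and -0.17 at the low, medium and high doses, on all scalings. Protein S was below it at the low dose (-0.34) and the medium dose (-0.30) on all scalings, and differed by -0.09 with orlistat and -0.11 at the high dose. Kng1 was above it by 0.91, 1.56, 0.58 and 0.68 in the same order of groups, C5 by 0.51, 0.53, 0.37 and 0.57, and C4bpa by 0.64, 0.62, 0.44 and 0.52.

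Other genes of the same pathways were taken from lists and are given on the deposited scale. Their counts stand beside the background given above for that scale: 26.7% of all genes higher and 28.4% lower in obese against normal liver, and against the obese control 26.2% and 25.6% with orlistat, 18.3% and 14.8% at the low, 21.8% and 20.1% at the medium and 26.6% and 25.3% at the high dose. Of 24 tested complement genes outside the members, 15 were higher and 1 lower in the obese than in the normal control, with a median log2 difference of 0.38. They include Clu (clusterin, an inhibitor of the pore; 0.45 ± 0.016, adjusted p 1.91e-12), the collectin Colec11 (0.91 ± 0.041), which is also on the stellate cell marker list, and C1qa (0.80 ± 0.043), a product of macrophages. All 10 Kupffer cell and macrophage markers tested were higher in that comparison. Against the obese control 8 complement genes were higher and 3 lower with orlistat, 15 and 3 at the low dose, 8 and 7 at the medium dose and 9 and 7 at the high dose. Cpn2, a subunit of the carboxypeptidase that inactivates kinins and complement fragments, rose by 0.34 ± 0.025, 0.40 ± 0.025 and 0.37 ± 0.025 with orlistat and at the medium and high doses. It had 75.55 ± 2.115 FPKM at the low dose against 67.79 ± 1.455 in the obese control. Of the Kupffer cell and macrophage markers, 8 of 10 were higher at the low dose, while 7 were lower at the medium and 6 at the high dose. The macrophage complement receptor Vsig4 had a log2 difference of -0.54 ± 0.060 at the medium dose. It had 14.23 ± 0.1665 FPKM in the obese control, 16.39 ± 0.1707 with orlistat, 16.75 ± 0.6145 at the low and 10.39 ± 0.6895 at the high dose.

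Of 17 other coagulation and fibrinolysis genes tested, 8 were higher and 0 lower in the obese control than in the normal control, with the smallest adjusted p in the fibrinogen chains. Fga had 1745 ± 6.13 FPKM in the normal control and 2486 ± 0.789 in the obese control, and rose by 0.51 ± 0.011 (adjusted p 4.01e-15), with Fgb and Fgg at 0.41 ± 0.018 and 0.45 ± 0.026. At the medium dose 0 of the 17 were higher and 4 lower than in the obese control, including Fga, Fgb and Fgg, with differences of -0.32 ± 0.011, -0.25 ± 0.018 and -0.25 ± 0.026. With orlistat 3 were higher and 3 lower, at the low dose 3 and 1, and at the high dose 3 and 6. Fga and Fgb differed by -0.18 ± 0.011 and -0.12 ± 0.018 with orlistat and by -0.12 ± 0.011 and -0.15 ± 0.018 at the high dose. TPM shifted the median of all genes upward by a similar size, 0.16 with orlistat and 0.17 at the high dose. The signs of these Fga and Fgb differences may therefore depend on the scaling, and their values on the other scalings are not given. At the low dose Fga differed by 0.03 ± 0.011. Tfpi, the tissue factor pathway inhibitor and an endothelial product, rose by 0.26 ± 0.046 with orlistat and 0.19 ± 0.046 at the low dose. It had 2.96 ± 0.240 FPKM in the obese control, 3.04 ± 0.103 at the medium dose and 3.53 ± 0.0679 at the high dose. Of 10 liver endothelial markers, 8 were higher with orlistat and at each of the 3 doses. Of 11 hepatocyte markers 6 were higher and 4 lower in the obese than in the normal control, and 3 and 7 with orlistat, 2 and 4 at the low dose, 3 and 7 at the medium dose and 3 and 7 at the high dose against the obese control. Platelets also carry factor V and protein S: of 5 platelet and megakaryocyte markers 2 passed the filter, and both were higher in the obese than in the normal control. Against the obese control 0 of these 2 passed with orlistat or at the low dose, 1 was lower at the medium dose and both were lower at the high dose. The platelet marker Gp1ba was below 0.1 FPKM in every library. The part of these marker shifts in the members' differences was not tested.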

How the data were processed

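Liver RNA of 18 rat libraries in 6 groups of 3 was measured by RNA sequencing. The authors deposited 1 table of FPKM for 33657 genes. Per the submitters' processing notes, CASAVA 1.7, Bowtie 0.12.2 and the build mm8 were used; mm8 is a mouse build, and no source used here names a rat build. Gene names, lengths and coordinates are those of the table, per the file headers. Multiplied by gene length, 100% of the FPKM of each library were whole multiples of the value of 1 read (tolerance 0.001), and the multiples were used as recovered reads, 16.6 to 26.2 M in a library.

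Values were taken as log2(FPKM + 1), so differences of low genes are understated. A single limma model (version 3.58.1, R 4.3.3) held all 6 groups, used a mean-variance trend and had no covariate. P-values were two-sided, adjusted by the Benjamini-Hochberg method over 11945 genes, with a threshold of 0.05. An exact permutation test of 3 against 3 libraries cannot give a p below 0.1. TPM, quantile and trimmed-mean scalings, another pseudocount (0.1), no filter, fits of only the groups compared, a replicate block and leaving out each library were the alternatives; centring on the median gene was chosen after seeing the data. The script was tested on simulated data. Replicate pairs differed by more than counting noise, so none was treated as a repeat deposit of the same library (chi-square per gene with a mean of 2.99 to 6.18, 1 expected, and a median of 0.675 to 1.07, 0.455 expected). This does not show that they are separate animals. Replicate numbers were not treated as pairs.

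The members and lists were chosen with earlier results of these data known. Members were described library by library if among the 3 smallest adjusted p in a direction in a comparison with a control, without overlap, or with a log2 difference of at least 0.5. Up to 3 genes per pathway list and comparison were named by smallest adjusted p. Promoters came from RefSeq (GRCr8). Python 3.11.15, pandas 2.3.3 and numpy 2.4.6 were used.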

Additional observations from a re-analysis of the deposited data

How the results depend on the processing

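The scale of the libraries was the main limit. With 3 libraries a group and a median coefficient of variation of 1.28%, differences of a few percent passed the test, and some of 12.5% to 14.5% changed sign with the scale. Over 297 of the member differences, TPM changed 72 calls or signs (30 signs turned, 21 calls lost, 21 gained) and quantile normalisation 60 (20, 27 and 13). These 297 held all differences between obese and normal control and between each treatment and the obese control. From the other comparisons they held only differences called on all scalings. Such differences could not change under TPM, quantile, trimmed-mean or centred values. The changed share of 297 therefore understates the dependence on scale. Counts for the other settings, and with a library left out, rest on the same 297. Here and below a sign was counted as turned only where the difference was called on the deposited scale or under the alternative. Turns of small differences called under neither were not counted. A pseudocount of 0.1 changed 0 calls, no filter changed 6 and fits of only the groups compared 12. Trimmed-mean scaling of recovered reads changed 13 and centring 12, with 0 turned signs by this count in each. Leaving out 1 library left 1741 of 1782 calls as they were, with 37 lost, 4 gained and 0 turned signs by the same count. The cause of the changes given next was not tested.

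On TPM, signs turned, by the count given above, for obese against normal control in Plg (-0.0544), Hrg (-0.0113), Cpb2 (-0.00702), C8a (-0.0426), C5 (-0.0413) and F11 (-0.0196). For orlistat against the obese control they turned in Plg (0.14), Hrg (0.0132), Serpinc1 (0.0577), Serping1 (0.162), C4bpb (0.142), F12 (0.00693) and F11 (0.0749). At the medium dose they turned in C3 (0.00941), Serpinc1 (0.0638), Serping1 (0.00773), Proc (0.0686), C8a (0.0812), C1s (0.0759), C8b (0.0892) and Masp2 (0.0337). At the high dose they turned in Vtn (0.00597), Hrg (0.0869), Serpinc1 (0.085), F12 (0.132), Cpb2 (0.152), Serpind1 (0.0376), Proc (0.0811), C8b (0.172) and Masp2 (0.0867). On quantile-normalised values they turned with orlistat in Vtn (0.0341), Serping1 (0.122), C4bpb (0.0894), Serpind1 (0.00963), Proc (0.0191), F10 (0.009) and F11 (0.00365), and at the low dose in Vtn (0.0983) and Serpinc1 (-0.0881). They turned at the medium dose in Vtn (0.0828), C3 (0.0904), Serping1 (0.0118), Proc (0.11), C8a (0.0577) and C8b (0.0689), and at the high dose in Vtn (0.0555), Cpb2 (0.0985), Serpind1 (0.0174), Proc (0.0694) and C8b (0.108).

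On TPM the members higher and lower were 25 and 4 with orlistat against the obese control, 21 and 5 at the medium dose and 27 and 2 at the high dose, and 2 were lower at the low dose. Quantile normalisation gave 5, 3, 3 and 4 lower with orlistat and at the low, medium and high doses, and 23 higher at the high dose. Of all 11945 genes it gave 2853, 1798, 2304 and 2863 lower in the same order, and 3290 higher at the high dose. Over all genes TPM gave 1973 higher in obese against normal control, 4989 higher and 1566 lower with orlistat, 1440 lower at the medium dose, and 5176 higher and 1476 lower at the high dose. Centring left 2 members lower in obese against normal control (2740 of 11945 genes). With orlistat against the normal control 1 was lower on TPM, on quantile-normalised values and after centring (2251, 2424 and 2386 of 11945 genes). Without medium-dose replicate 1, 5 members were lower at the medium dose than in the normal control (2719 of 11945 genes). The range of members over all left-out libraries was 3 to 5. The replicate block lost 3 member calls (adjusted p with the block): Masp2 at the medium dose against the obese control (0.0618), C6 at the high dose against orlistat (0.0623) and C8g at the medium dose against the normal control (0.053). The block changed no other member call and gave 29 higher and 6 lower members in obese against normal control, as without it. Of all 11945 genes it gave 3167 higher and 3362 lower there. Same-numbered libraries of different groups did not deviate together (correlations of -0.09 to 0.07, and 2 of 18 libraries closest to their own number), and they were not paired. With 3 libraries a group this cannot show whether they share a batch.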

Other observations

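Genes that process and export vitamin K-dependent and other clotting factors were measured too, 5 of 6 passing the filter on low values. Lman1, a cargo receptor that carries factor V out of the endoplasmic reticulum, had 46.9 ± 1.16 FPKM in the normal control and 33.9 ± 0.800 in the obese control (log2 difference -0.46 ± 0.040, limma adjusted p 1.17e-07; mean ± SD, n = 3). It had 48.7 ± 0.766 with orlistat, 46.9 ± 1.35 at the medium dose and 46.5 ± 2.26 at the high dose, and 34.6 ± 1.89 at the low dose. Mcfd2, its partner, differed by -0.20 ± 0.027 at the medium dose, and had 79.9 ± 1.65 FPKM at the high dose against 87.4 ± 0.679 in the obese control. Vkorc1, which recycles vitamin K, had 50.8 ± 0.567 FPKM in the obese control and 33.7 ± 0.499 with orlistat (-0.58 ± 0.035, adjusted p 1.87e-09). It was also lower at the low (-0.26 ± 0.035), medium (-0.26 ± 0.035) and high (-0.49 ± 0.035) doses. Ggcx, the carboxylase that uses vitamin K, rose by 0.12 ± 0.024 at the low and 0.23 ± 0.024 at the high dose. It had 16.3 ± 0.193 FPKM at the medium dose against 14.9 ± 0.319 in the obese control.

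Of 17 transcription factors and interleukin-6 signalling genes tested, 5 were higher and 8 lower in the obese than in the normal control, where 26.7% and 28.4% of all genes were. Il6st, the signalling subunit of the interleukin-6 receptor, had 75.3 ± 1.76 FPKM in the normal control and 31.3 ± 1.57 in the obese control, a log2 difference of -1.24 ± 0.046 (adjusted p 3.48e-12). It rose against the obese control by 0.64 ± 0.046 with orlistat, 0.56 ± 0.046 at the low dose and 0.82 ± 0.046 at the high dose. At the medium dose Il6st had 41.2 ± 3.20 FPKM, also above the obese control. Il6r differed by -0.47 ± 0.040 between the controls. Onecut1, a hepatocyte transcription factor, had 35.1 ± 0.345, 7.81 ± 0.0841 and 17.5 ± 0.608 FPKM in the normal control, the obese control and the high dose. It had 6.68 ± 0.614 with orlistat, 8.77 ± 0.791 at the low dose and 6.31 ± 0.902 at the medium dose. Foxa1 differed from the obese control by -0.87 ± 0.068 with orlistat and Cebpb by -0.54 ± 0.049 at the high dose.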
